A study of Mus musculus with 2 samples.

Results

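The tubulins, kinesins and dyneins form the microtubules of a cell and the motors that walk on them. Members were taken by name: every non-control probe whose gene name begins with an alpha, beta, gamma, delta or epsilon tubulin symbol (Tuba, Tubb, Tubg, Tubd or Tube), with Kif, Kifc or Klc for kinesin heavy and light chains, or with Dnah, Dnaic, Dnali, Dnalc, Dync or Dynl for dynein chains. The rule used no measured value. Its closing full stop was read as punctuation, and read as 1 more required character it would take 82 probes. As read here it found 100 of the 15208 probes, which stand for 61 genes, of which 15 were tubulins, 29 kinesins and 17 dyneins. Of these probes 97 were well above background on at least 1 array and 3 were not, and every one of the 61 genes kept a probe, out of 9411 genes compared in the series.

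The series compared isolated testis cells labelled as Sertoli cells, the somatic cells that line the seminiferous tubule and nurse the germ cells. The busulphan array carried RNA of male Swiss mice aged 3 months that had received the alkylating drug busulphan at 25 mg/kg body weight and were sampled 1 month later. The control array carried RNA of untreated male Swiss mice of the same age. Both preparations were digested with collagenase and hyaluronidase, collected on the finer of a pair of strainers and not cultured, and how many mice went into each is not given in the labels. Each group therefore had 1 array, so no difference has a replicate check, no p-value is given, and all differences are between these 2 preparations.

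Alpha- and beta-tubulin pair into the subunit from which microtubules are built, gamma-tubulin starts new microtubules, and delta- and epsilon-tubulin belong to centrioles. Most kinesins carry cargo towards the growing end of a microtubule or act on chromosomes and the spindle, whereas cytoplasmic dynein walks the other way. In the testis these proteins serve several cells at once: the Sertoli cell uses microtubules to hold and move germ cells, meiotic germ cells use them for spindles, and spermatids use them for the manchette around the nucleus and for the axoneme of the tail, which axonemal dyneins bend.

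Values are given as scaled signal, the processed brightness of a spot divided by the 75th percentile of its own array and multiplied by 1000, and a difference as the log2 ratio of busulphan over control. A gene was called higher or lower when it differed at least 2-fold. A spot that was saturated or not well above background on 1 array gives only a bound, written as at least so many fold. The spot error reported by the scanner software gave an error of 0.20 on the log2 ratio of the median member, with a range over members of 0.20 to 1.43, and this covers a single spot and not the spread between mice. Of the 15208 probes, 12064 were well above background on the busulphan array and 12302 on the control array, and 18 were saturated on the busulphan array and 106 on the control array. Of the 100 member probes, 91 were well above background on the busulphan array and 97 on the control array, and 0 were saturated on the busulphan array and 4 on the control array.

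The labelled cell type was checked against marker genes. Of all genes compared, 31.3% were higher on the busulphan array and 29.6% lower. Of 14 Sertoli cell markers, 13 were higher on the busulphan array, with a median log2 ratio of at least 3.51 and a summed scaled signal of 212226 on the busulphan array and 26372 on the control array. Of 10 spermatid markers, all 10 were lower, with a median log2 ratio of at most -5.95, 6 of them being bounds, and sums of 39581 and 441185 on the busulphan and control arrays. Of 15 spermatocyte markers, 13 were lower, with a median of at most -2.95 and sums of 45286 and 291650 in the same order. None of the spermatid markers was at 0 on either array, and 6 of the 10 were saturated on the control array, which thus held abundant germ cell RNA beside its Sertoli label. The busulphan array also held germ cell RNA. Its median spermatid marker stood at 603, but Prm1 had 16872, Prm2 12134 and Tnp1 7552 there, and the spermatocyte marker Ldhc had 25375. As sets, spermatid and spermatocyte markers moved with the group, while the spermatogonium markers given further on had a median log2 ratio of -0.01. The part of germ cells in the differences described here was not tested. In such bulk RNA, fewer cells of a type and less RNA per cell cannot be told apart.

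Across the 61 members, 33 (54.1%) were at least 2-fold lower on the busulphan array, beside 29.6% of all genes compared, and 16 (26.2%) were at least 2-fold higher, beside 31.3% of all genes. The other 12 lay within 2-fold. The median member stood 2.22-fold lower, at a log2 ratio of -1.15, and the median of all genes stood at 0.06. Ratios ran from -6.53 for the alpha-tubulin Tuba8 to 5.34 for the kinesin Kif21a. At the 16-fold mark, 7 members were lower (beside 5.47% of all genes) and 1 was higher, where 1.33% of all genes were. The classes differed in their counts: 6 of 15 tubulins were higher and 6 lower, 7 of 29 kinesins were higher and 15 lower, and 3 of 17 dyneins were higher and 12 lower. With scaling to the spike-in control probes in place of the 75th percentile, the members split into 9 higher and 39 lower and all genes into 1520 higher and 4372 lower, since the median of all genes then moved by -0.88.

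**Figure D1:**
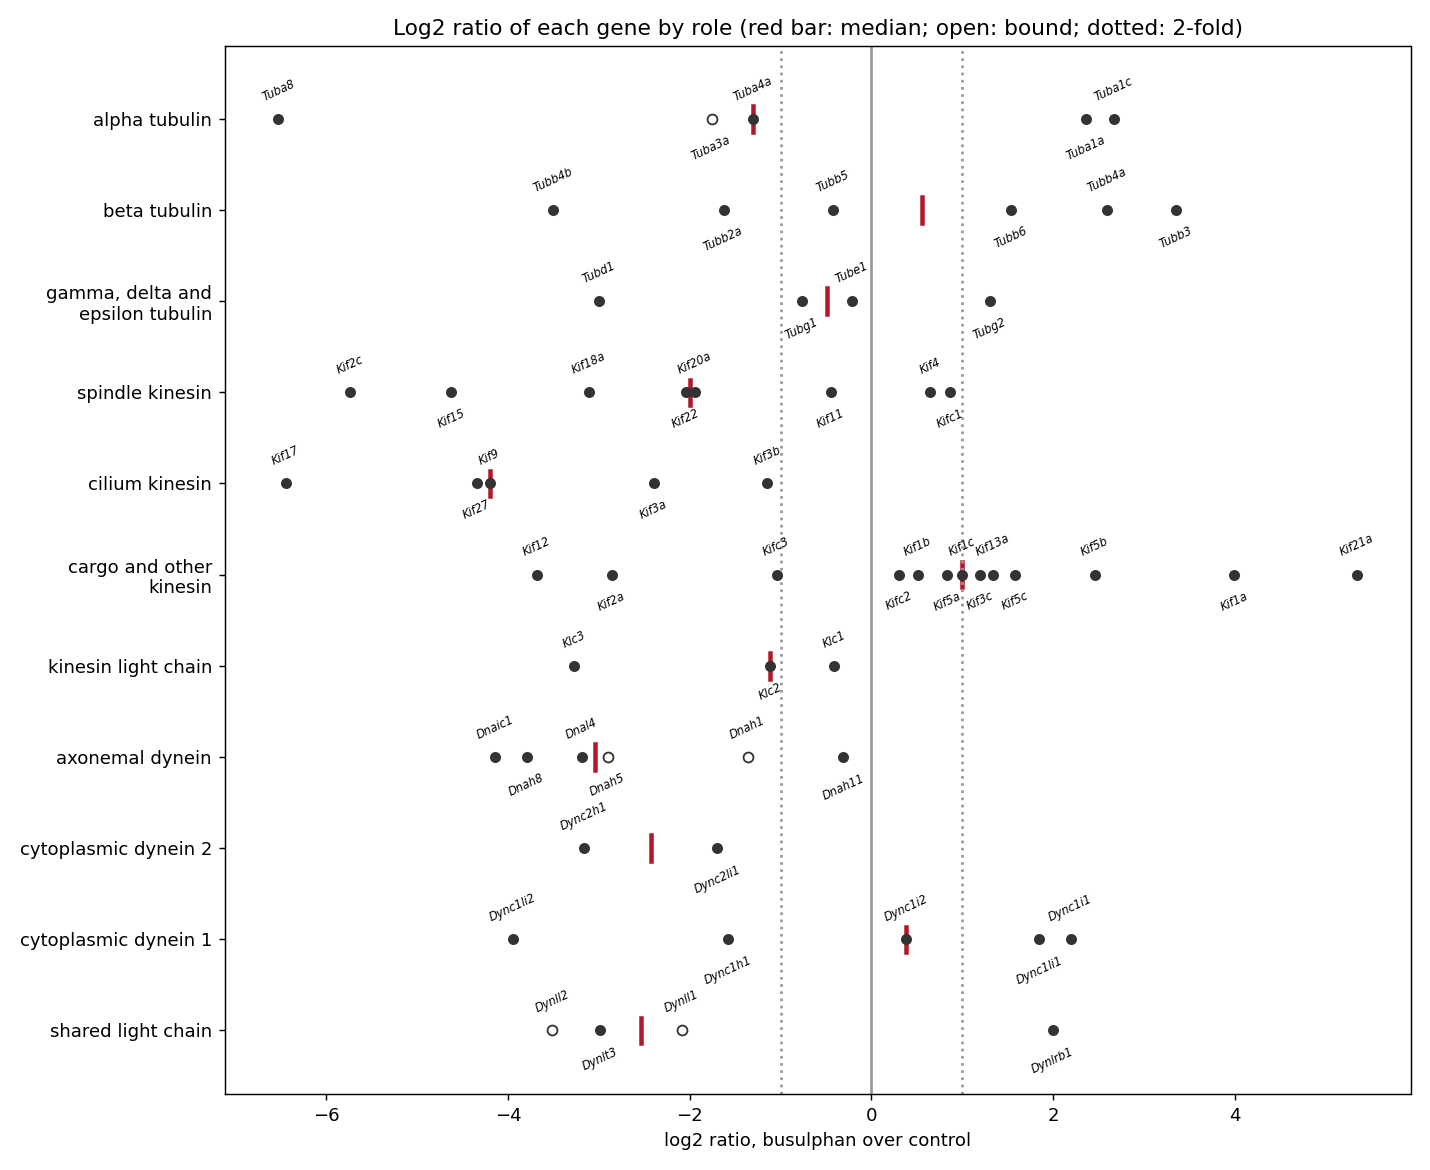
Log2 ratio of busulphan over control (horizontal axis) for each of the 61 genes, 1 point per gene, in rows by role, with red bars at the row's median, open points for genes whose ratio is only a bound and dotted lines at 2-fold either way. Ratios run from -6.53 for Tuba8 to 5.34 for Kif21a, all 5 cilium kinesins lie past the lower line, and the alpha- and beta-tubulins lie on both sides.

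Among the 5 alpha-tubulins, 2 were higher and 3 lower. Tuba8, an alpha-tubulin of testis, muscle and brain, had a scaled signal of 107 on the busulphan array and 9820.4 on the control array, which is 92.1-fold lower. Its probe lies at mm9 chr6:121173240-121173299 on the plus strand. Tuba3a, an alpha-tubulin made in the testis, had 20518 on the busulphan array and a saturated spot at 69478 on the control array, so it was at least 3.39-fold lower. A further Tuba3a probe had 6361 on the busulphan array and was saturated at 63379 on the control array, at least 9.96-fold lower. Tuba4a had 9084 on the busulphan array and 22414 on the control array, 2.47-fold lower and within 2-fold at a log2 ratio of -0.49 with quantile normalization, while its other 2 probes were 11.9-fold and 17.1-fold lower.

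The 2 higher alpha-tubulins are isotypes made in many cell types. Tuba1c had 43132 on the busulphan array and 6784 on the control array, a log2 ratio of 2.67, and its other probe had 6661 and 3897 on the busulphan and control arrays, a log2 ratio of 0.77. Tuba1a, whose gene neighbours Tuba1c on chromosome 15, had 18209 on the busulphan array and 3555 on the control array, 5.12-fold higher. Within the alpha-tubulins the isotypes thus lay on both sides, and none of the 5 lay within 2-fold.

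The 6 beta-tubulins split likewise, with 3 higher and 2 lower. Tubb3, the isotype used as a marker of neurons, had 5128 on the busulphan array and 502 on the control array, 10.2-fold higher, by a probe at mm9 chr8:125945701-125945760. Tubb4a, known chiefly from brain and called Tubb4 in the files, had 1870.2 on the busulphan array and 310.5 on the control array, 6.02-fold higher. Tubb6, an isotype made in many tissues, had 10173 on the busulphan array and 3515 on the control array, 2.89-fold higher, and dropped within 2-fold at a log2 ratio of 0.65 when the arrays were scaled to spike-in probes. In the other direction stood Tubb4b, the isotype of cilia and flagella, called Tubb2c in the files. It had 1822 on the busulphan array and 20672 on the control array, 11.3-fold lower. Tubb2a, a beta-tubulin abundant in neurons, had 18570.0 on the busulphan array and 57374 on the control array, 3.09-fold lower and within 2-fold at a log2 ratio of -0.68 with quantile normalization. Its other 2 probes were 2.0-fold lower and, at a log2 ratio of -0.73, within 2-fold.

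Tubb5, the beta-tubulin of most dividing cells, had probes that did not match each other. The probe taken for the gene had 19697 on the busulphan array and 26456 on the control array, a log2 ratio of -0.43. That ratio was -1.31 with spike-in scaling, 0.54 with quantile normalization and 1.27 as the median over its probes, so its call and direction depend on the setting. A probe only 31 bases away on chromosome 17 had 20089 on the busulphan array and 2573 on the control array, 7.81-fold higher. The probes thus lay on different sides, and the cause was not tested.

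Beta-tubulin genes, and likewise alpha-tubulin genes, have related coding sequences, so a probe in an alike stretch may also bind the RNA of another isotype. Among the 18 alpha- and beta-tubulin probes, 144 pairs of probes of different genes were aligned without gaps, each at its best offset. Identity was taken over the whole overlap, of at least 20 bases, and in 2 pairs it was at least 70%. A shorter alike stretch inside a longer overlap was not searched for. The probes were compared with each other only, and not with the transcripts of other isotypes. These 2 pairs are printed to show how alike probes of different tubulin genes can be, 5′ to 3′ as the files give them. Capitals mark the aligned stretch, mismatched bases included. The Tubb5 probe (mm9 chr17:35971963-35972022, minus strand) and the Tubb2a probe (mm9 chr13:34166411-34166470, minus strand) shared 22 of 25 bases:
Tubb5 probe: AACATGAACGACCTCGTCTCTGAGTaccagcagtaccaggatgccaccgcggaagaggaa
Tubb2a probe: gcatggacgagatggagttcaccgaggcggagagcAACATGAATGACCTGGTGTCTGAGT
The Tuba3a probe (mm9 chr6:125231106-125231165, minus strand) and the Tuba8 probe given above shared 34 of 45 bases:
Tuba3a probe: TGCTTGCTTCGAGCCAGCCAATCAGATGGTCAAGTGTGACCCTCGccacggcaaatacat
Tuba8 probe: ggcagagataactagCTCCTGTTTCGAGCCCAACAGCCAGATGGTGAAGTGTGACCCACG
Whether either pair binds the other gene's RNA was not tested.

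The 4 remaining tubulins were mixed. Tubd1, a delta-tubulin of centriole triplets, had 672 on the busulphan array and 5372 on the control array, 8.0-fold lower. Tubg2, a gamma-tubulin, had 109 on the busulphan array and 44.4 on the control array, 2.46-fold higher, but its log2 ratio was 0.86 with normexp background correction and 0.42 with spike-in scaling. Tubg1, the gamma-tubulin of most cells, had 870.3 on the busulphan array and 1480.0 on the control array, and Tube1, an epsilon-tubulin, had 297 and 346 on the busulphan and control arrays. Neither Tubg1 nor Tube1 passed 2-fold, but with spike-in scaling both were lower, at log2 ratios of -1.65 and -1.10.

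**Figure D2:**
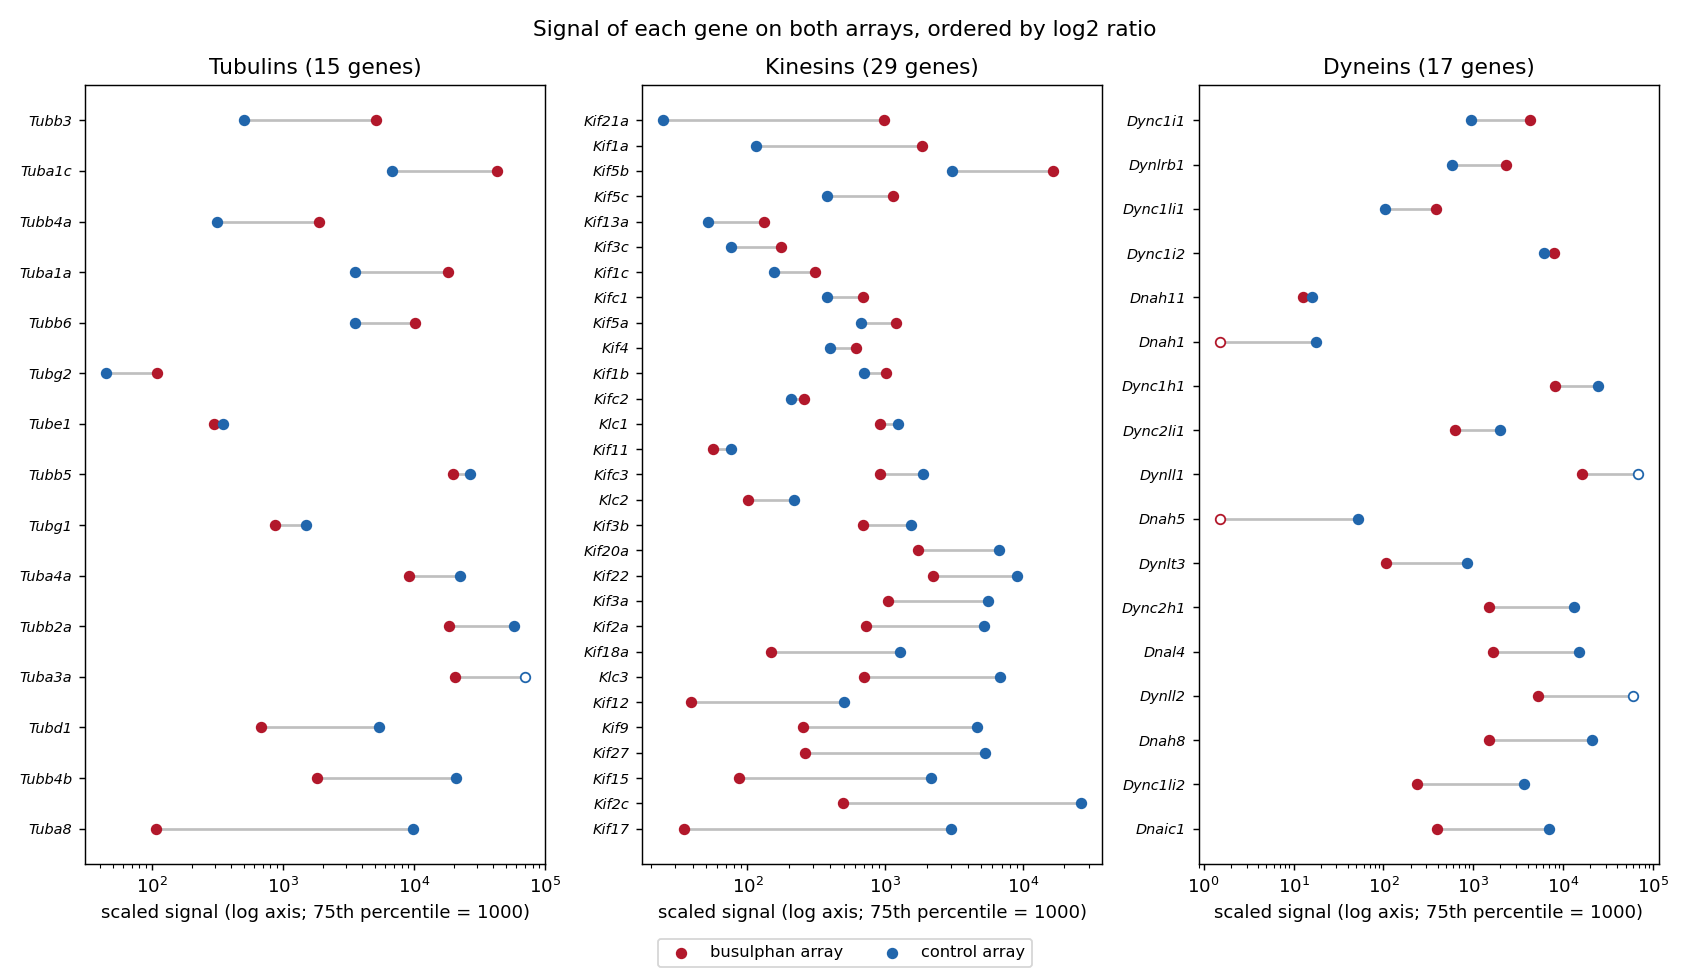
Scaled signal (log axis, 75th percentile of each array at 1000) of each of the 15 tubulins, 29 kinesins and 17 dyneins on the busulphan array (red) and the control array (blue), 1 array per group, ordered by log2 ratio, with open points for spots that were saturated or not well above background. Tubb3, Kif21a and Dync1i1 head their panels with the busulphan point on the higher side, and Tuba8, Kif17 and Dnaic1 end them with it on the lower side.

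The kinesins are described by role, and no difference between roles was tested. Roles were assigned with earlier results of these data known, so the counts by role depend on that assignment. For example, Kif3c, higher at a log2 ratio of 1.20, was placed with the cargo and other kinesins and not with Kif3a and Kif3b. Of 5 kinesins of cilia and flagella, all 5 were lower on the busulphan array, with a median 18.4-fold lower, and 3 of them passed 16-fold. Kif17, which moves along cilia and in mouse spermatids carries a coactivator of the factor CREM, had 34.4 on the busulphan array and 3002 on the control array, 87.2-fold lower. Its probe runs over 2003 bases at mm9 chr4:137852169-137854171, plus strand, and at 60 bases long it therefore bridges at least 1 intron. Kif27 had 261 on the busulphan array and 5307 on the control array, 20.3-fold lower. Kif9, a motor of the flagellum, had 252 on the busulphan array and 4633 on the control array, 18.4-fold lower. Kif3a and Kif3b, the paired motor subunits that carry intraflagellar transport outward along the axoneme, were lower by unequal amounts. Kif3a had 1054 on the busulphan array and 5546 on the control array, 5.26-fold lower, and Kif3b had 694 and 1537 on the busulphan and control arrays, 2.22-fold lower. Kif3b lay within 2-fold at -0.97 when the 75th percentile was taken over probes bright on both arrays, which left 4 of the 5 lower.

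Of 8 kinesins of the mitotic and meiotic spindle, 5 were lower, 3 lay within 2-fold and 0 were higher. Kif2c, which takes microtubules apart at centromeres, had 497 on the busulphan array and 26552 on the control array, 53.4-fold lower. Kif15, which helps keep the spindle bipolar, had 87.2 on the busulphan array and 2148 on the control array, 24.6-fold lower, while a further probe with 9.76 and 29.9 on the busulphan and control arrays gave a log2 ratio of -1.62. Kif18a, which aligns chromosomes at the metaphase plate, was 8.64-fold lower, at 149 on the busulphan array and 1287 on the control array. Kif22, a motor on chromosome arms, was 4.12-fold lower and Kif20a, a motor of cytokinesis, 3.85-fold lower. Kif11, which pushes spindle poles apart, had 55.9 on the busulphan array and 76.4 on the control array, a log2 ratio of -0.45. Over the processing settings its ratio fell as low as -1.33, past 2-fold lower. Kif4 had 616 and 394 on the busulphan and control arrays and Kifc1 had 694 and 380.1, at log2 ratios of 0.64 and 0.87, and both ratios were below 0 with spike-in scaling, at -0.24 and -0.01.

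With roles assigned in this way, the heterogeneous class of cargo and other kinesins held every kinesin that was higher. Of its 13 genes, 7 were higher, 3 were lower and another 3 lay within 2-fold, and the median gene stood 2.0-fold higher. A single spindle kinesin also passed 2-fold when the 75th percentile was taken over probes bright on both arrays. With normexp background correction 4 of the 7 stayed past 2-fold, and with spike-in scaling 3 did. Kif21a, which slows microtubule growth and whose human gene is mutated in a congenital disorder of the eye muscles, had 983 on the busulphan array and 24.3 on the control array, 40.5-fold higher. Its probe also bridges an intron, running over 1386 bases at mm9 chr15:90766263-90767648. Kif5b, the conventional kinesin heavy chain of most cells, had 16634 on the busulphan array and 3034 on the control array, 5.48-fold higher, and its other probe gave a log2 ratio of 1.99.

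Kif1a, which carries precursors of synaptic vesicles in neurons, was 15.9-fold higher by the probe taken for the gene, with 1838 on the busulphan array and 116 on the control array. Kif5c, a conventional kinesin best known from neurons, was 2.99-fold higher, with 1133 on the busulphan array and 378 on the control array, and lay within 2-fold at a log2 ratio of 0.70 with spike-in scaling. Probes elsewhere in both genes lay on the other side, as described further on. The remaining higher genes, Kif13a (2.53-fold), Kif3c (2.29-fold) and Kif1c (2.0-fold), had scaled signals of 131 to 311 on the busulphan array and 51.7 to 155 on the control array, and all 3 dropped within 2-fold with normexp background correction and with spike-in scaling.

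On the lower side stood Kif12 with 39.0 on the busulphan array and 499.7 on the control array, 12.8-fold lower. Kif2a, which takes microtubules apart at their ends, had 724 on the busulphan array and 5250.4 on the control array, 7.26-fold lower, with other probes at log2 ratios of -0.80 and -2.49. Kifc3, a motor that walks towards the minus end, was 2.06-fold lower, with 919.7 on the busulphan array and 1896 on the control array. It lay within 2-fold at -0.97 with quantile normalization and at -0.87 with the percentile over probes bright on both arrays. A further Kifc3 probe had 126 on the busulphan array and 899 on the control array, 7.12-fold lower. Kif5a, Kif1b and Kifc2 lay within 2-fold at log2 ratios of 0.83, 0.51 and 0.31, each of which was below 0 with spike-in scaling. Of the 3 light chains, which couple conventional kinesin to cargo, Klc3 had 707 on the busulphan array and 6813 on the control array, 9.63-fold lower. Klc3 is known in rodent spermatids for binding the outer dense fibres of the tail. Klc2 was 2.17-fold lower, though within 2-fold at -0.78 with normexp background correction. Klc1, at 924 on the busulphan array and 1231 on the control array, lay within 2-fold, but fell as low as -1.30 over the processing settings.

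Promoters are shown for the members at both ends of the tubulin and kinesin ranges, to set genes that lay in opposite directions side by side. They are 250 bases before to 50 bases after the annotated start, 5′ to 3′ on the gene's strand, from RefSeq on GRCm38.p6. Capitals mark matches to 4 motifs searched on both strands: GTTGCC, a half-site of the X-box that RFX factors bind in ciliary genes; TGACGTCA, the cyclic AMP response element bound by CREB and CREM; TTTGAA, the cell cycle homology region; and CCAAT. The windows are chr6:121210484-121210783 (plus strand) for Tuba8, chr4:138262001-138262300 (plus strand) for Kif17, chr8:123411303-123411602 (plus strand) for Tubb3 and chr15:91049902-91050201 (minus strand) for Kif21a:
Tuba8 promoter: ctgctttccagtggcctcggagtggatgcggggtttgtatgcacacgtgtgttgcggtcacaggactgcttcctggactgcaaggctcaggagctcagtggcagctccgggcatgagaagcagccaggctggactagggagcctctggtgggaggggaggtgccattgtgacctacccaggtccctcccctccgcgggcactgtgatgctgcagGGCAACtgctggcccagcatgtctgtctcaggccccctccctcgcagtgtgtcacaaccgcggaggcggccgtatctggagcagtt
Kif17 promoter: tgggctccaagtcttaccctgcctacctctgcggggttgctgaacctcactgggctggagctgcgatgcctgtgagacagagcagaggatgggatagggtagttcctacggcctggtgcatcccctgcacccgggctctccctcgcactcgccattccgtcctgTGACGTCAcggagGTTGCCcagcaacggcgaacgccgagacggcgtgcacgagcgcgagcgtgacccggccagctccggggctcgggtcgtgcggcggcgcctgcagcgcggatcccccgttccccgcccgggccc
Tubb3 promoter: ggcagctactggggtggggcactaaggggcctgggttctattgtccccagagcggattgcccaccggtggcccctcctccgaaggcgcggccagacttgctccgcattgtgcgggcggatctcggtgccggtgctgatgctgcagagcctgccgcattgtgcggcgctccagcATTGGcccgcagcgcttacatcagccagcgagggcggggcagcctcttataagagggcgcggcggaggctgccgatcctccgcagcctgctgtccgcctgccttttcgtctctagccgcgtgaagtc
Kif21a promoter: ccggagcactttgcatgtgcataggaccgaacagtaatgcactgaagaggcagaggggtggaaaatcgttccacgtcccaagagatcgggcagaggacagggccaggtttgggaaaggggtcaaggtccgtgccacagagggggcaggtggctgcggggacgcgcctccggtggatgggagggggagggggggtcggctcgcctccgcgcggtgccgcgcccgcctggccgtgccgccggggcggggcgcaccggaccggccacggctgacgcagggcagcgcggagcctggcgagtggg
The Tuba8 window held an X-box half-site 36 bases before the start. The Kif17 window held the cyclic AMP response element 86 bases before the start and an X-box half-site 73 bases before it. The Tubb3 window held a CCAAT match, read on the other strand, 77 bases before the start, and the Kif21a window held none of these letters. No match overlapped another.

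A promoter window was at hand for 50 of the 61 members and 6975 of the 9411 genes. The X-box half-site was found in 14 member windows (28%) and in 13.9% of all windows. It was found in 9 of 27 windows of lower members and in 4 of 14 windows of higher members, so it was not limited to genes that were lower. The cyclic AMP response element was found in 5 member windows (10%) and in 3.07% of all windows. The cell cycle homology region was found in 20% of member windows and 15.9% of all windows, and CCAAT in 38% and 42.8%. These shares were not adjusted for base composition, and a match is a run of letters and not a shown binding site.

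Of the dyneins, 12 of 17 were lower and the median stood at least 4.26-fold lower, at the bound of Dynll1. Axonemal dyneins, the arms that bend cilia and flagella, had 5 of 6 genes lower and 0 higher. Dnaic1, an intermediate chain of the outer arm, had 392 on the busulphan array and 6917 on the control array, 17.6-fold lower. Dnah8, an outer arm heavy chain of sperm, called Dnahc8 in the files, had 1509 on the busulphan array and 20929 on the control array, 13.9-fold lower. A further Dnah8 probe was not well above background on the busulphan array at 1.64. It had 17.0 on the control array, at least 2.46-fold lower. Dnal4, an axonemal light chain, had 1639.6 on the busulphan array and 14921 on the control array, 9.10-fold lower.

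The other 3 axonemal heavy chains had signals far below the 75th percentile on both arrays. Dnah5, an outer arm chain of motile cilia, was not well above background on the busulphan array at 1.51 and had 51.6 on the control array, at least 7.47-fold lower. Dnah1, an inner arm chain, was likewise not well above background on the busulphan array at 1.51 and had 17.8 on the control array, at least 2.57-fold lower. Dnah11, an outer arm chain of the embryonic node and airways, had 12.8 and 15.9 on the busulphan and control arrays and lay within 2-fold. Over the processing settings its log2 ratio fell as low as -1.19. With normexp background correction neither Dnah1 nor Dnah5 passed 2-fold, at log2 ratios of -0.04 and -0.68, which left 3 of the 6 lower.

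Cytoplasmic dynein 2, the motor that brings intraflagellar transport back to the cell body, was represented by both its heavy and light intermediate chain, and both were lower. Dync2h1 had 1472 on the busulphan array and 13145 on the control array, 8.93-fold lower, and its 5 probes all lay below 0, between -3.16 and -1.57 on the log2 scale. Dync2li1 had 617 on the busulphan array and 1998 on the control array, 3.24-fold lower.

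Cytoplasmic dynein 1, the general minus-end motor of the cell, had subunits on both sides. Its heavy chain Dync1h1 had 8059.6 on the busulphan array and 24140.1 on the control array, 3.00-fold lower, with other probes at log2 ratios of -0.70 and -1.29, and it lay within 2-fold at -0.77 with quantile normalization. The light intermediate chains stood on opposite sides. Dync1li1 had 379 on the busulphan array and 105 on the control array, 3.60-fold higher, though its log2 ratio was 0.97 with spike-in scaling, and Dync1li2 had 237 on the busulphan array and 3657 on the control array, 15.4-fold lower. The intermediate chain Dync1i1 had 4258 on the busulphan array and 932 on the control array, 4.57-fold higher, and its paralogue Dync1i2 had 7934 and 6082 on the busulphan and control arrays, within 2-fold.

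Of 4 light chains, 3 were lower. Dynll1, a small hub protein found in dynein and many other complexes, had 15943 on the busulphan array and a saturated spot at 67842 on the control array, at least 4.26-fold lower. Its paralogue Dynll2 had 5196 on the busulphan array and a saturated spot at 59303 on the control array, at least 11.4-fold lower. A further, unsaturated Dynll2 probe was 3.77-fold higher, as described further on. With saturated spots left out, Dynll1 had no value and Dynll2 stood at a log2 ratio of 1.91. Dynlt3 had 107 on the busulphan array and 851 on the control array, 7.93-fold lower. Dynlrb1, the roadblock-type light chain, had 2301 on the busulphan array and 578 on the control array, 3.98-fold higher.

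Probes of 1 gene did not always point the same way. Several probes with a value were present for 26 members, and the median spread between the probes of a gene was 1.57 on the log2 scale, with 11 genes under 1. In 6 genes the sign differed, and in 3 of these, Dynll2, Kif1a and Kif5c, 1 probe was called higher and another lower. The Dynll2 probe at mm9 chr11:87793164-87793223 had 4333 on the busulphan array and 1150.5 on the control array, 3.77-fold higher, and lay 1754 bases nearer the 3′ end than the saturated probe called lower, at chr11:87794978-87795037. A Kif1a probe at chr1:94916534-94917051 had 48.7 on the busulphan array and 117 on the control array, 2.40-fold lower, and lay 4362 bases upstream of the probe called higher at chr1:94912112-94912171. A Kif5c probe at chr2:49597503-49597562 had 169 on the busulphan array and 1189.5 on the control array, 7.04-fold lower, and lay 32553 bases upstream of the probe called higher, at chr2:49630116-49630175. In 3 further genes the probes differed in sign without opposite calls. Kif1b, taken at 1006 on the busulphan array and 707 on the control array, had other probes at log2 ratios of 1.57, 1.51 and -0.03, Kif1c had others at -0.28 and -0.16, and Tubb5 was described above. In Dynll2, Kif1a and Kif5c the probe nearer the 3′ end was the one called higher.

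That order was also compared over all genes with several probes. Among 20 members with at least 2 probes measured on both arrays, the probe nearest the 3′ end had the higher ratio in 12 (60%), with a median difference of 0.10, beside 68.3% of 2308 genes of the series and a median of 0.34. It was at least 2-fold above the probe nearest the 5′ end in 8 members (40%) and at least 2-fold below it in 2 (10%), Kif15 and Kif1b, beside 30.9% and 7.32% of all genes. Opposite calls with the 3′ probe higher were seen in 107 of the 2308 genes and the reverse in 13. Labelling was primed from the poly(A) tail per the labels' protocol. The cause of the differences between probes was not tested.

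**Figure D3:**
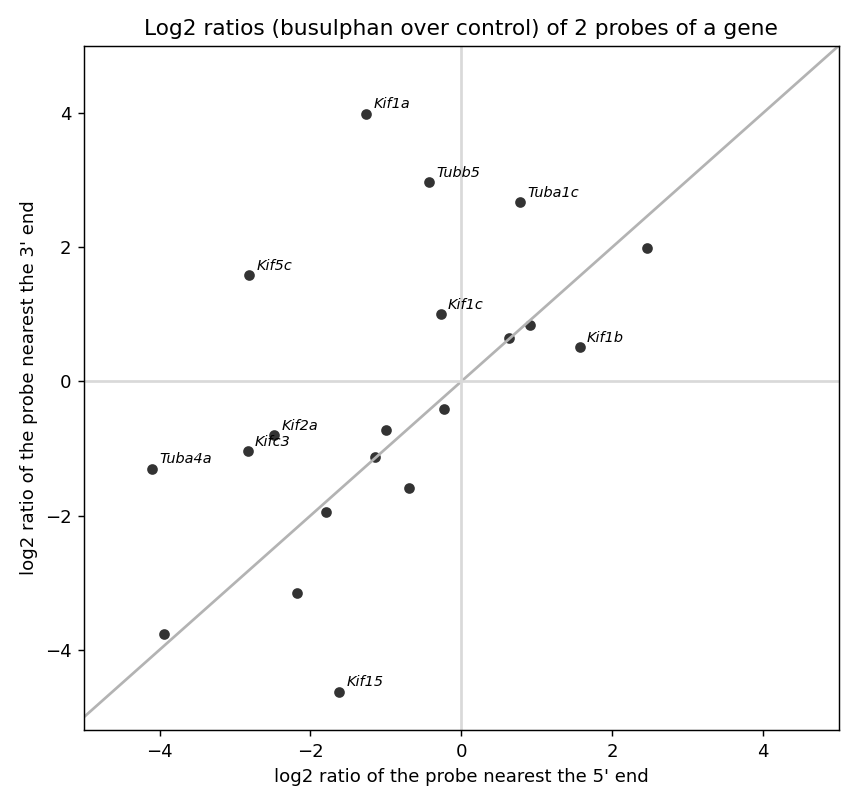
Log2 ratio of busulphan over control of the probe nearest the 5′ end (horizontal axis) and the probe nearest the 3′ end (vertical axis) for 20 members with several probes measured on both arrays, 1 point per gene, with a line where both are equal. Kif1a and Kif5c lie below -1 on the horizontal axis and above 1 on the vertical axis, 12 points lie above the line, and Kif15 lies farthest below it.

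Other genes of the microtubule system, from lists by function, were read beside the members. Over all genes compared, 29.6% were lower and 31.3% higher. Of 19 genes of the axoneme and sperm tail, all 19 were lower, with a median at least 25.6-fold lower since 5 of them are bounds. The lowest were Akap4 and Akap3, anchoring proteins of the fibrous sheath, with Akap4 at 585 on the busulphan array and 41731 on the control array, 71.4-fold lower, and Akap3 62.7-fold lower. Akap4 is also on the spermatid marker list. The highest ratios were those of Gas8, at -1.86, and Ropn1l, at -2.65 as a bound. Of 7 genes of intraflagellar transport, 5 were lower and 0 higher. Ift172, saturated on the control array, was at least 12.3-fold lower and Ift74 8.88-fold lower, while Ift52 and Traf3ip1 lay within 2-fold at -0.71 and -0.94.

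Of 16 genes of spindle assembly, mitotic control and the spindle checkpoint, 14 were lower and 0 higher, with a median 5.59-fold lower. Plk1, a mitotic kinase, had 787 on the busulphan array and 19622 on the control array, 24.9-fold lower, and cyclin B2 (Ccnb2) was 11.8-fold lower. Mad2l1 and Tpx2, of the spindle checkpoint and spindle assembly, lay within 2-fold at -0.04 and -0.48. Of 12 genes of dynactin and the dynein adaptors, 5 were lower (41.7%) and 1 higher (8.33%), beside 29.6% and 31.3% of all genes. Hook2 and Hook1, linkers between dynein and cargo, were 8.74-fold and 8.03-fold lower, Hook3 was 2.15-fold higher and Bicd2 lay within 2-fold at 0.92. With normexp background correction, with scaling by the array median and with no scaling, 0 genes of this list were higher. Hook1 is also on the spermatid marker list.

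The lists that act on the microtubule lattice were mixed. Of 11 genes of tubulin folding, severing and modification, 2 were higher (18.2%) and 4 lower (36.4%), beside 31.3% and 29.6% of all genes. Hdac6, which removes acetyl groups from alpha-tubulin, had 12817 on the busulphan array and 1271 on the control array, 10.1-fold higher. Ttl, which adds the terminal tyrosine of alpha-tubulin, was 2.17-fold higher. With normexp background correction, with scaling by the array median and with quantile normalization, only 1 gene of this list was higher. Agbl3, which trims tubulin tails, was 23.7-fold lower. Of 23 microtubule-associated and end-binding proteins, 5 were higher (21.7%) and 6 lower (26.1%), and their median was 0.01. Both of these shares lay below those over all genes. Map1b was 6.90-fold and Map1lc3b 5.64-fold higher. Dclk1 had 11.4 on the busulphan array and 1139 on the control array, 100.0-fold lower, and Map2 was 44.3-fold lower. No list was tested against the others.

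**Figure D4:**
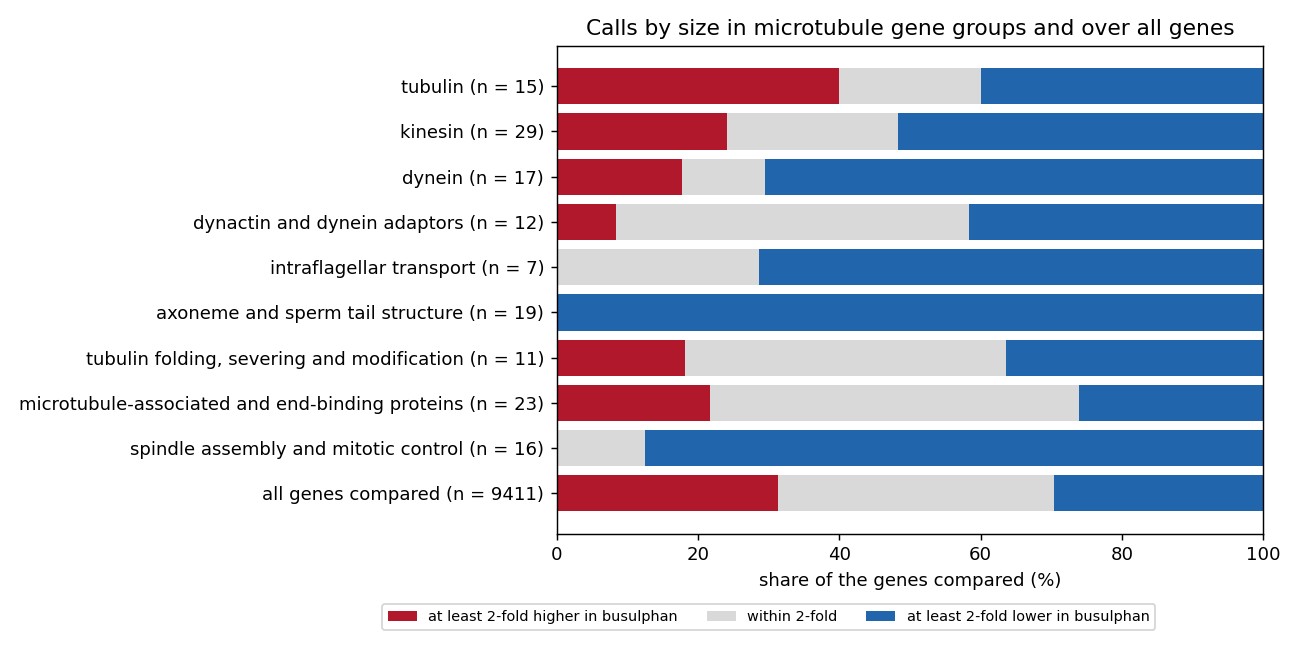
Share of genes (percent) at least 2-fold higher, within 2-fold and at least 2-fold lower on the busulphan array, for the 3 member classes, 6 related lists and all 9411 genes compared. The axoneme and sperm tail list is lower throughout, beside 29.6% of all genes, and no gene of intraflagellar transport or of spindle assembly and mitotic control is higher.

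Markers of other cells were read the same way, beside 31.3% of all genes higher and 29.6% lower, and their part in the members' values was not tested. Of 12 macrophage markers, 8 were higher and 0 lower, with summed scaled signals of 8134 on the busulphan array and 1347 on the control array. Of 10 spermatogonium markers, 3 were higher (30%) and 1 lower (10%). Their median was -0.01, and they had sums of 26297 on the busulphan array and 9868 on the control array. Uchl1 alone gave 21121 and 5938 of these sums on the busulphan and control arrays, and Dmrt1, 1 of the 3 higher, is also on the Sertoli cell list. Peritubular myoid cell markers had 4 of 8 higher (50%) and 0 lower. Leydig cell markers had 3 of 8 higher (37.5%) and 1 lower (12.5%), and endothelial markers 2 of 10 (20%) on each side. The Leydig and endothelial shares thus lay near or below those over all genes. Of 4 markers of multiciliated cells of the efferent ducts, 3 were lower, namely Foxj1, Rfx3 and Rfx2, with sums of 391 on the busulphan array and 13871 on the control array. Foxj1 and Rfx2 are also made by germ cells, so these markers do not separate the sources.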

How the data were processed

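RNA of 1 busulphan and 1 control preparation was labelled with Cy3 and hybridised to 1 single-colour array each. Per the file headers, Agilent Feature Extraction 11.5.1.1 turned each scan into the deposited intensity values, with background subtracted. The deposited log2 table equals log2 of that signal minus a constant per array, 9.82 for busulphan and 10.03 for control, and has medians of -2.77 and -2.94. Both arrays share a scan time per the file headers, but preparation and group cannot be told apart.

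Each processed signal was divided by the 75th percentile over the non-control probes of its array and taken to log2. That percentile was 905 on the busulphan and 1046 on the control array. The 4 feature outliers were left out. A probe entered when well above background on at least 1 array, and each gene was read from the probe brightest on average. Bounds set a dim spot at the higher of its own value and the lowest one called well above background there. Where a bound ran against the measured direction (8 genes), a ratio of 0 was entered.

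Accessions gave RefSeq symbols (GRCm38.p6) for 13324 of 15208 probes and 94 of 100 member probes. Probe coordinates are on mm9 per the file headers, and strand read from them matched RefSeq for 99.6% of probes compared. Exon, intron and UTR positions of probes were not used here. Counts rest on a 2-fold rule of size, with no test, and its scripts were tested on simulated data. All members could be named. Both values were given for the 4 highest and 4 lowest of each class, for bounds and for members whose probes differ in direction, and each related list has its 2 highest and 2 lowest genes named, except that 1 such gene is not reported here. The members and lists were chosen with earlier results of these data known. Normexp (offset 50) used limma 3.58.1, and other alternatives changed scaling, filters, bounds, the choice of probe and the fold threshold.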

Additional observations from a re-analysis of the deposited data

How the results depend on the processing

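With 1 array per group, these values show how far processing moves a difference and not how far mice do. Over 13 settings, 33 of the 49 called members (9 higher, 24 lower) stayed past 2-fold wherever a setting gave the gene a value. Tuba3a and Dynll1 are among the 33, but had no value when saturated spots were left out. No value per gene was taken when each probe counted on its own. The median log2 ratio of the members was -0.78 with normexp background correction, -0.77 with quantile normalization, -1.36 with no scaling, -2.03 with spike-in scaling and -0.77 over the 57 members bright and unsaturated on both arrays, against -1.15 as reported. The median of all genes was 0.12, 0.18, -0.14, -0.81 and 0.15 in the same order of settings, against 0.06. The count of higher members was 9 with spike-in scaling and 8 at a 4-fold threshold, against 16. When each of 97 probes counted on its own, 51 probes (52.6%) were lower, beside 29.0% of all probes. By gene, 33 members (54.1%) were lower, beside 29.6% of all genes. Of the called members, 3 changed sign: Dynll2 to 1.91 when saturated spots were left out, since only its other probe remained, and Kif5c to -0.62 and Kif1c to -0.16 with the median over probes. Saturation on the control array limits the size of Tuba3a, Dynll1 and Dynll2, and signals near background limit Dnah1 and Dnah5. No paired analysis was possible because each group has 1 array.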
